A study of Mus musculus with 12 samples.

Results

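The mitosis and spindle genes are 38 listed genes whose products drive a cell into mitosis, build the spindle, attach chromosomes to it, check that attachment and split the cell. They were taken by symbol from the array's annotation, with 1 probe set per gene, the one with the highest mean level among probe sets that carry 1 symbol. Of the 38, 37 were found among the 18194 genes named on the array, and Ccnb1, cyclin B1, is not analysed here. RNA from cultured mouse fat cells was hybridised to 12 Affymetrix arrays, 3 in each of 4 groups, and values are linear signals in arbitrary units. 3T3-L1, an established mouse line that makes white-type fat cells, was taken as preadipocytes at day 0 and as adipocytes at day 10. A brown fat cell line was taken as preadipocytes at day 0 and as adipocytes at day 8. Neither line carried a genetic change that the labels name, and the labels do not say how the brown line was made or whether it is 1 clone. Day 0 was 2 days after confluence in both lines, so all 4 groups had passed confluence, and both were induced for 3 days with insulin, dexamethasone at 1 µM and the phosphodiesterase inhibitor IBMX at 0.5 mM. The insulin dose was 1 µg/mL for white cells, while brown cells had 20 nM together with 125 µM indomethacin and 1 nM of the thyroid hormone T3. White cells had insulin withdrawn before harvest, whereas brown cells kept insulin and T3 to the end. Line, hormones and harvest day differed together and cannot be told apart in any difference between the lines.

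Mitosis is driven by the kinase Cdk1 bound to cyclins A and B. The spindle checkpoint holds back the anaphase-promoting complex until every kinetochore, the protein plate on the centromere, is attached to the spindle, and the complex then marks securin and the cyclins for destruction. Most of these genes are transcribed late in the cell cycle and are low in cells that have left it. In human and mouse cells many of their promoters carry CCAAT boxes, bound by NF-Y, and a CHR (cell cycle genes homology region), bound by the MuvB complexes. Those complexes hold the genes silent in resting cells and, with B-Myb and FoxM1, switch them on before mitosis. Induced 3T3-L1 cells are known to pass through a few divisions before they mature into fat cells.

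All 37 genes fell as white cells differentiated, and 35 of them fell much less as brown cells differentiated. White adipocytes kept between 4.06% (Kif23) and 23.2% (Cdk1) of the preadipocyte signal, with a median of 8.02%. The share of Ndc80 was also 4.06%, but its white adipocyte signals lay at or near the floor of the arrays. Brown adipocytes kept between 28.4% (Bub1b) and 107% (Mad2l1), with a median of 57.9%. The median change on the log2(signal + 16) scale was −3.47 in the white line and −0.78 in the brown line, against 0.02 and −0.03 over the 13746 genes tested. The fall was smaller in the brown line for each of the 37 genes by the test of the difference itself (adjusted p at most 0.000229, limma with Benjamini-Hochberg adjustment over all genes tested), where 23.6% of all genes tested had a higher change in the brown line. Of all genes tested, 31.2% were called lower in white adipocytes and 31.5% in brown adipocytes, at an adjusted p under 0.05, and 12.4% and 12.6% were lower by at least 2-fold. Among the 37, 37 fell by at least 2-fold in the white line and 9 in the brown line. Whether fewer cells were dividing or each cell held less of these RNAs cannot be told apart in bulk samples. The labels do not say that the 3 samples of a group came from separate cultures, so p-values measure the spread between these samples, which may be technical.

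**Figure D1:**
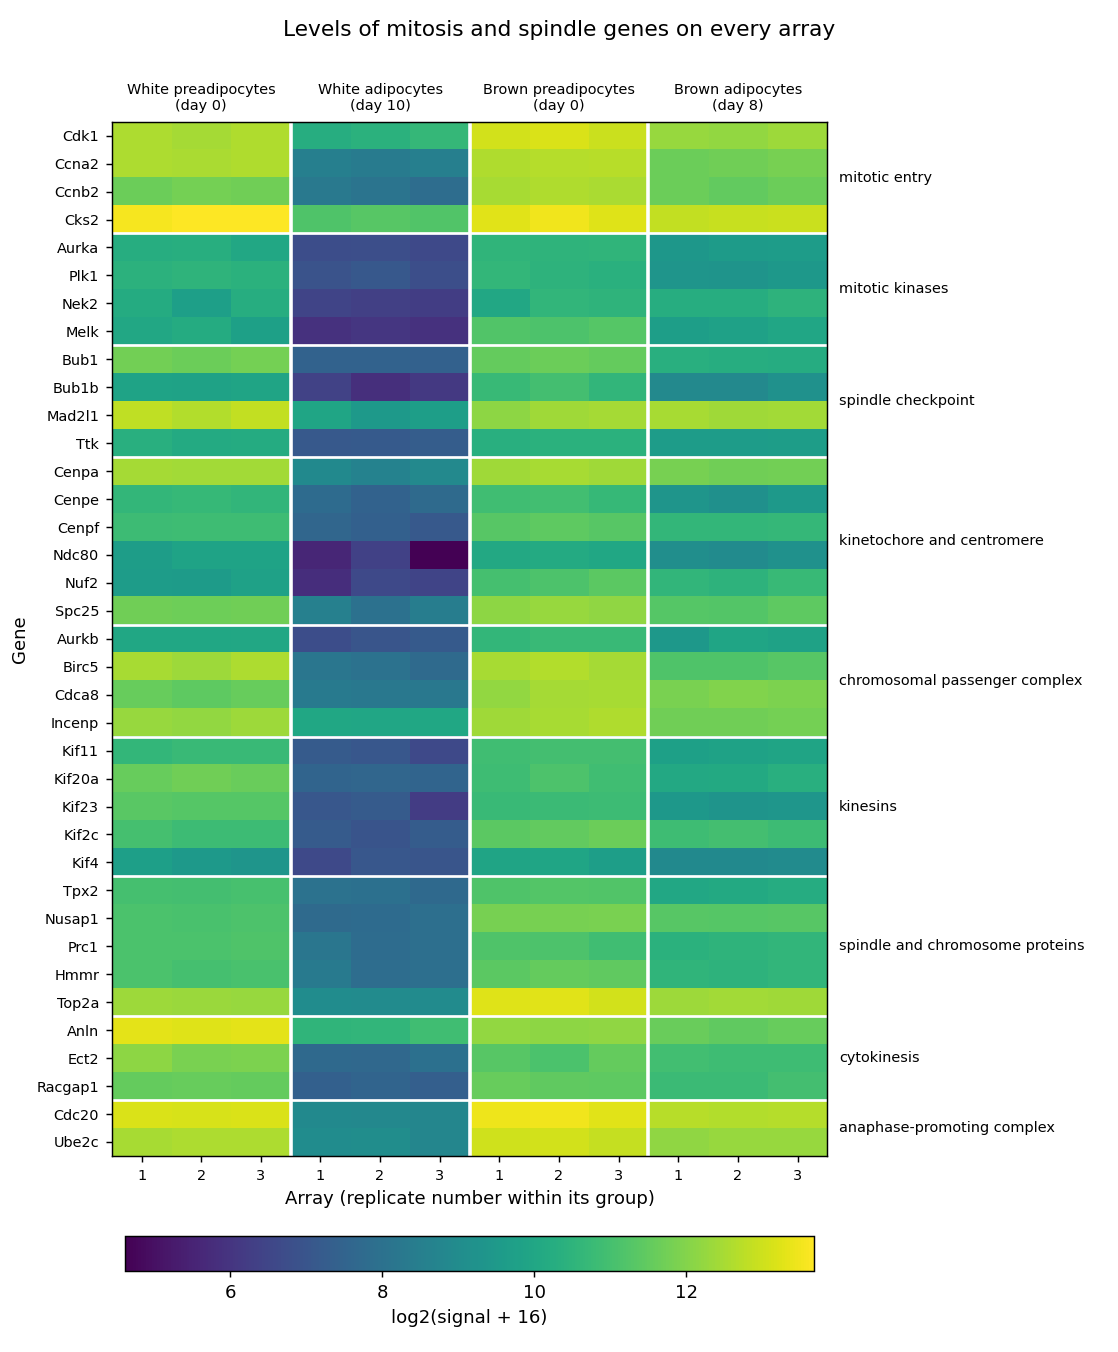
Level of each of the 37 genes (rows, grouped by role) on each of the 12 arrays (columns, grouped by line and day), as log2(signal + 16) in colour. The white adipocyte columns are the darkest for every gene, and the brown adipocyte columns lie closer to the preadipocyte columns. The median over the 37 genes was 11.29 to 11.37 in white preadipocytes, 7.67 to 7.73 in white adipocytes, 11.39 to 11.46 in brown preadipocytes and 10.61 to 10.71 in brown adipocytes.

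The labels were checked against markers before the genes were read. Adiponectin (Adipoq) stood at 31.94 in white preadipocytes and 32120 in white adipocytes, but already at 18700 in brown preadipocytes and 26330 in brown adipocytes. All 8 adipocyte markers were higher in brown than in white preadipocytes, with summed signals of 48650 to 57480 against 8737 to 9562. Brown preadipocytes at day 0 therefore already carried adipocyte RNA, and the part of this in the smaller fall of the brown line was not tested. Of 8 brown fat markers 7 rose in the brown line and 5 in the white line, and 6 were higher in brown than in white adipocytes. Cidea stood at 6754 and Ucp1 at 382.4 in brown adipocytes, against 63.33 and 6.141 in white adipocytes. Cox8b had its higher mean in white adipocytes (5065 against 3685), and Dio2 was at 40.78 and 39.36. The 5 preadipocyte markers measured summed to 606.1 to 678.7 in brown adipocytes and 8613 to 9494 in white adipocytes. Dlk1, a defining preadipocyte gene, stood at 31.83 in brown adipocytes and 778.9 in white adipocytes. Of 7 macrophage markers 5 passed the filter on dim genes. The summed signal of all 7 ran from 389.5 in brown adipocytes to 1626 in white preadipocytes. Lyz2 stood at 870.2 and Cd14 at 452.4 in white preadipocytes, and at 492.3 and 235.6 in white adipocytes. In brown adipocytes they stood at 15.05 and 130.3, while Ptprc and Itgam were near the floor in all groups. The mean of Cd68 went the other way, from 35.13 to 84.28 in the white line and from 75.98 to 109 in the brown line. The means of Csf1r lay between 97.13 and 127.4 and those of Adgre1 between 40.61 and 45.35 in the 4 groups. None of 5 endothelial markers passed. Of 7 skeletal muscle markers 4 passed, of which 2 rose in each line and 1 fell in the brown line. The summed signal of the muscle markers was 308.9 to 472.5 in white preadipocytes and 989.9 to 1011 in white adipocytes, and 330.4 to 374.5 and 470.4 to 562.9 in the brown line. Des went from 133 to 685.5 and from 129.8 to 265.8, while the defining factor Myod1 lay at 29.78 to 38.81 in the 4 groups. The part of these other markers in the results was not tested. The ratio of actin signal at the 3' and 5' ends, which grows as RNA degrades, rose with differentiation from 1.36 to 1.46 up to 2.08 to 2.35 in the white line and from 1.43 to 1.56 up to 2.39 to 2.48 in the brown line. The same ratio of Gapdh lay between 0.75 and 0.899 on every array.

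Promoters from RefSeq (GRCm38.p6) were searched because the genes moved together. Of the 37 genes, 32 had an entry, with 34 promoters of 250 bases before to 50 bases after the start. Ccna2, Aurkb, Incenp, Kif20a and Tpx2 had no entry. The words searched, on both strands, were TTTGAA and TTCGAA for the CHR and CCAAT for the CCAAT box. The 200 bases before the start are shown for genes at the ends of the range of change, 5′ to 3′ on the gene's strand, with each CHR or CCAAT word in capitals (ATTGG is CCAAT on the other strand). Cdk1 (chr10:69352913-69353112, minus strand) had the smallest fall in the white line and Cdc20 (chr4:118437344-118437543, minus strand) one of the 3 largest. Bub1b (chr2:118598011-118598210, plus strand) and Cenpe (chr3:135212363-135212562, plus strand) had the largest falls in the brown line. Mad2l1 (chr6:66535021-66535220, plus strand) and Nek2 (chr1:191821273-191821472, plus strand) were the genes not called there.
Cdk1: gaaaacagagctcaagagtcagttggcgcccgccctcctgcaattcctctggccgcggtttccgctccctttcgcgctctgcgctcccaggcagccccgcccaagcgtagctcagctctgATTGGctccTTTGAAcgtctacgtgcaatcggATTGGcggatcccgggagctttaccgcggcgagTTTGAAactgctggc
Cdc20: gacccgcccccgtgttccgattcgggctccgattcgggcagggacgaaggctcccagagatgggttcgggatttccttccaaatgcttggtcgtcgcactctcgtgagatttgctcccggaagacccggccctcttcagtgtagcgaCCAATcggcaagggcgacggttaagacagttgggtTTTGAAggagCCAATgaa
Bub1b: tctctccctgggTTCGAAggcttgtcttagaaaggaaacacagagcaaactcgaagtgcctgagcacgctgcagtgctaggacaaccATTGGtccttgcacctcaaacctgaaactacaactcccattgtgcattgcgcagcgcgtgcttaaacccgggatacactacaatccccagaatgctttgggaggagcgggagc
Cenpe: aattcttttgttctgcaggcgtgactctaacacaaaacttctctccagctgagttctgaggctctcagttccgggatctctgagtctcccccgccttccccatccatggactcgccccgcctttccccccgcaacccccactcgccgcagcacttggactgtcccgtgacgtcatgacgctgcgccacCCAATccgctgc
Mad2l1: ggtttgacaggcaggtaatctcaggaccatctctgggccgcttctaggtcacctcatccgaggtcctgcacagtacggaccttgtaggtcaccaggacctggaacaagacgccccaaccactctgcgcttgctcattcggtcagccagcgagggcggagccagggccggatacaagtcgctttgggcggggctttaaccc
Nek2: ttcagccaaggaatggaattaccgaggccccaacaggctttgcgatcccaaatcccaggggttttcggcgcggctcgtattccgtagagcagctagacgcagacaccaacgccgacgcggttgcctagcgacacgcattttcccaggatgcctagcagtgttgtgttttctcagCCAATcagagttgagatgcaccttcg
The Cdk1 promoter held CHR words starting 71 and 15 bases before the start, and the Cdc20 promoter held one 18 bases before it, between a pair of CCAAT words. Cenpe and Nek2 showed a CCAAT word and no CHR word, and Mad2l1 showed neither.

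A CHR word was found in 26 of the 34 promoters (76.5%, 24 genes), against 19.2% of the 32851 promoters in the table. A CCAAT word was also found in 26 of 34 (76.5% against 37.4%), at least 2 such words in 52.9% against 11.7%, and both kinds of word in 67.6% against 7.52%. The CHR word started within 50 bases of the transcription start in 25 of 34 promoters (73.5%), against 5.31% of all promoters. The E2F words TTTCCCGC and TTTGGCGC were found in 0 of 34, against 1.56% of all promoters. Frequent CHR and CCAAT words were not particular to the 37 genes. The distance of the CHR word from the start was compared only with all promoters. In 104 promoters of other mitosis genes and regulators, 2 lists described below, 51.9% held a CHR word and 61.5% a CCAAT word. At least 2 CCAAT words were found in 35.6% of those promoters and both kinds of word in 37.5%. The lack of E2F words was not shared, as 12.5% of those promoters held one. Birc5, Cenpe, Cks2, Mad2l1, Melk, Nek2, Nuf2 and Nusap1 held no CHR word in this window. The median white change was −3.56 for the 24 genes with a CHR word and −3.34 for the 8 without, and the median brown change was −0.79 and −0.55. The ranges of both sets overlapped widely, and the 8 without the word held both genes not called in the brown line as well as Cenpe. These letters are matches in a sequence, and binding was not measured.

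**Figure D2:**
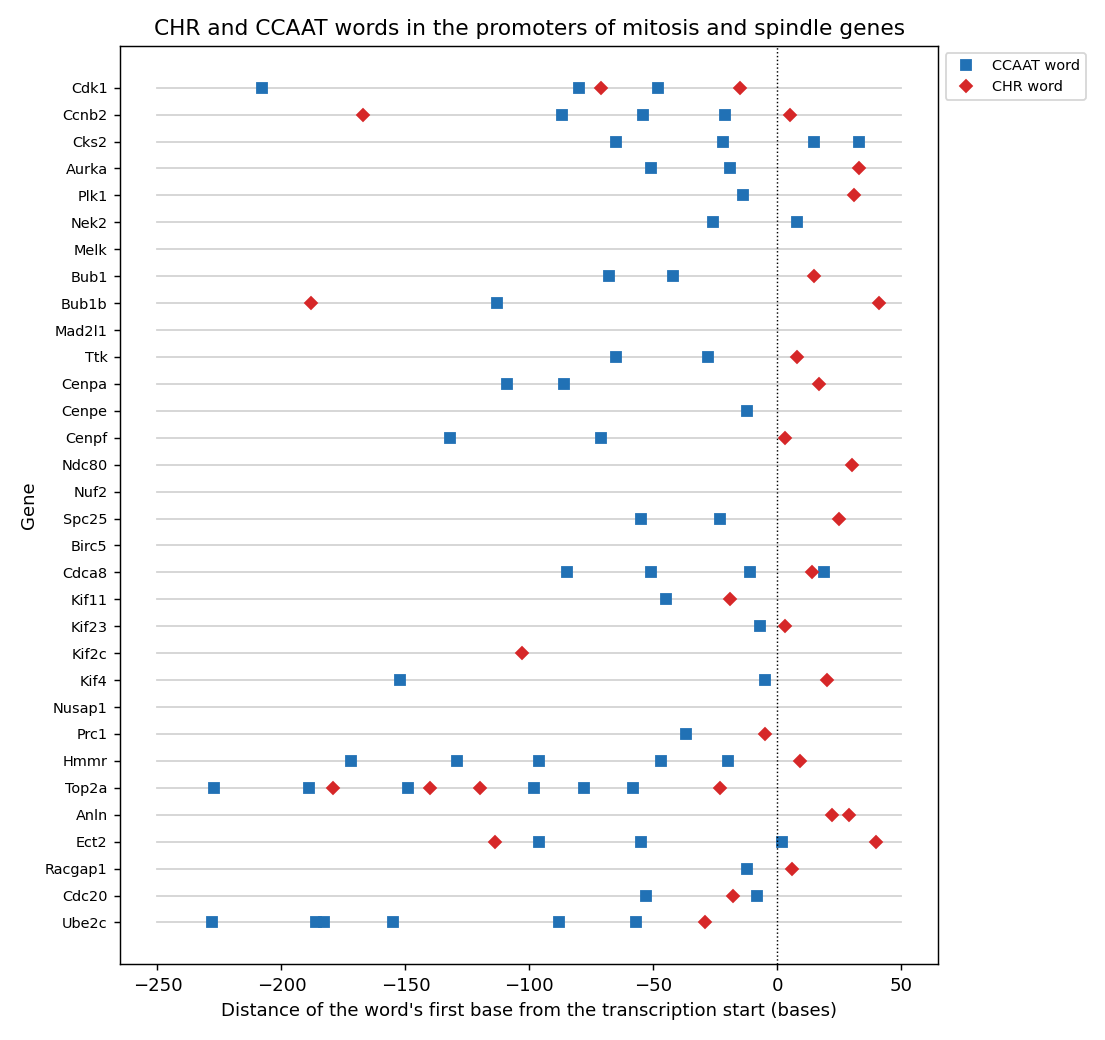
Position of CHR words (diamonds) and CCAAT words (squares) in the first listed promoter of each of the 32 genes with an entry, as the distance of the word's first base from the transcription start in bases. CHR words gather around the start and CCAAT words lie mostly upstream of it, and the lines of Melk, Mad2l1, Nuf2, Birc5 and Nusap1 hold neither.

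Genes of mitotic entry fell in both lines, Cdk1 least of all 37 in the white line. The signal of Cdk1, the kinase that starts mitosis (chr10:69335146-69352912), was 6046, 5679 and 6281 in white preadipocytes, 1219, 1353 and 1607 in white adipocytes, 8531, 9231 and 7881 in brown preadipocytes and 4927, 4696 and 5235 in brown adipocytes. The 4 groups did not overlap, and even white adipocytes kept a clear signal. Cdk1 changed by −2.10 (SE 0.104, adjusted p = 4.02e-08, limma) in the white line and by −0.78 (SE 0.104, adjusted p = 9.04e-05) in the brown line, a difference of 1.32 (SE 0.147). Ccna2, cyclin A2 (chr3:36564865-36573038), which activates Cdk1 and also acts in DNA replication, had 6100, 5866 and 6249 in white preadipocytes and 356.1, 314.5 and 354.3 in white adipocytes. In the brown line Ccna2 had 6215, 6587 and 6744 before and 3226, 3336 and 3619 after. The lines overlapped at day 0 and stood far apart after differentiation, with changes of −4.09 (SE 0.0719) and −0.94 (SE 0.0719) and a difference of 3.15 (adjusted p = 8.14e-09, limma). Ccnb2, cyclin B2, changed by −3.65 and −0.95. Cks2, a small partner of Cdk1, changed by −2.40 and −0.41, among the 3 smallest changes in each line.

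The mitotic kinases held one of the genes that were not called in the brown line. Nek2, a kinase that helps separate the centrosomes (chr1:191821449-191833049), had 1160, 839.9 and 1212 in white preadipocytes and 72.49, 65.14 and 60.84 in white adipocytes. Its brown signals were 1041, 1515 and 1428 before and 1224, 1204 and 1423 after differentiation. The white groups were far apart and the brown groups overlapped: Nek2 fell by 3.71 on the log2 scale (SE 0.168, adjusted p = 2.04e-08, limma) in the white line, and its brown change was −0.03 (SE 0.168, adjusted p = 0.878). Its 3 further probe sets, dimmer ones, had brown changes of −0.06, −0.07 and 0.14. Averaged over all 4 probe sets, the white fall of Nek2 was −1.76 and the difference between lines 1.76, in place of 3.67. Plk1, a kinase needed from mitotic entry to cell division (chr7:122159435-122169884), had 1387, 1435 and 1337 in white preadipocytes and 105.7, 120.5 and 94.9 in white adipocytes. In the brown line Plk1 had 1560, 1416 and 1322, then 631.8, 610.2 and 676.6. The groups did not overlap within either line, and Plk1 changed by −3.52 (SE 0.0905) and −1.14 (SE 0.0905). Aurka, the centrosomal Aurora kinase, changed by −3.47 and −0.998. Melk, a kinase peaking in mitosis, had 1044, 1151 and 863.9 in white preadipocytes and 43.81, 50.4 and 44.01 in white adipocytes, near the 40th percentile of the arrays (32.9 to 41.2). The brown signals of Melk were 2395, 2245 and 2461, then 814, 868.1 and 1001. The groups did not overlap within either line, and the changes were −4.05 and −1.39 (SE 0.112 each).

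The spindle checkpoint spanned the whole range of the brown line. Bub1b, which encodes BubR1, a subunit of the complex that inhibits Cdc20 (chr2:118598202-118641592), had 927.4, 889.8 and 957.1 in white preadipocytes and 68.23, 40.58 and 53.66 in white adipocytes. Brown preadipocytes had 1690, 2002 and 1525 and brown adipocytes 454, 454.5 and 575.2 for Bub1b. Brown preadipocytes were the highest group on every array, and Bub1b had the largest brown fall of the 37 genes (−1.78, SE 0.155, adjusted p = 3.69e-06, limma), beside −3.76 (SE 0.155) in the white line. Averaged over its 3 probe sets Bub1b changed by −1.17 and −2.21. Mad2l1, its partner in that complex (chr6:66535221-66541107), had 7116, 6423 and 7438 in white preadipocytes and 968.4, 695.1 and 820.7 in white adipocytes. The brown signals of Mad2l1 were 4482, 5306 and 5591 before and 5697, 5366 and 5435 after. The brown groups overlapped and white preadipocytes were the highest group: Mad2l1 changed by −3.06 (SE 0.123) in the white line and by 0.11 (SE 0.123, adjusted p = 0.49, limma) in the brown line. Mad2l1 was the only one of the 37 whose mean was higher in brown adipocytes than in brown preadipocytes, though scaling to the hybridization controls turned that sign (−0.13). The checkpoint kinases Bub1 and Ttk fell in both lines, with changes of −4.29 and −1.32 for Bub1 and −3.02 and −0.74 for Ttk.

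Kinetochore and centromere genes fell in both lines, 6 of 6 in each, with brown calls that for 5 of them were lost under some alternative. Cenpe, the kinesin that carries chromosomes to the spindle's middle (chr3:135212563-135273540), had 1561, 1654 and 1519 in white preadipocytes and 205.5, 162.5 and 198.4 in white adipocytes. In the brown line Cenpe had 1913, 1924 and 1621, then 625.4, 553.5 and 714.9. Among the genes of this role Cenpe had the changes nearest to each other, −2.97 (SE 0.116) and −1.51 (SE 0.116). Its difference was 1.46 (adjusted p = 4.11e-05, limma), and that of Cdk1 was smaller (1.32). Ndc80, which binds microtubules at the kinetochore (chr17:71496100-71526857), had 800.4, 925.2 and 916.4 in white preadipocytes and 32.05, 66.78 and 8.395 in white adipocytes. The brown line had 1070, 1135 and 1023 before and 523.9, 494.1 and 579 after for Ndc80. Its white adipocyte signals were at or near the floor of the arrays and spread widely, and Ndc80 was the one member not above the 40th percentile on all 12 arrays (10 of 12). Its changes were −4.28 and −0.996 (SE 0.335 each, adjusted p = 1.32e-06 and 0.0265, limma). The brown call of Ndc80 was lost without each of the 3 brown preadipocyte arrays or brown adipocyte replicates 1 and 2 (adjusted p from 0.0514 to 0.0688) and at a pseudocount of 1 (adjusted p = 0.148).

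Nuf2, the partner of Ndc80 in the same complex (chr1:169497934-169531464), had 775.5, 752.7 and 884.3 in white preadipocytes and 40.02, 82.05 and 73.44 in white adipocytes. Its brown signals were 2066, 2236 and 2668 before and 1518, 1409 and 1655 after. Brown adipocytes thus stood above white preadipocytes on every array. Nuf2 changed by −3.37 and −0.59 (SE 0.19 each). Its brown call (adjusted p = 0.021, limma) was lost without brown preadipocyte replicate 3 (adjusted p = 0.0754) and without brown adipocyte replicates 1 or 2 (0.0501 and 0.065), and at a pseudocount of 1 (0.0509). Cenpa, the centromeric histone, changed by −3.63 and −0.67, Cenpf by −3.47 and −0.73, and Spc25, another subunit of the Ndc80 complex, by −3.38 and −0.88. For Cenpa and Spc25 these values came from the bright probe set, of the _a_at design, which can match several transcripts of the same gene. That design was counted here, with _s_at and _x_at, among the less specific ones. With such designs left out, a dimmer set of Cenpa, above the 40th percentile on 4 of 12 arrays, changed by −0.88 and −0.22 (adjusted p = 0.146 and 0.729, limma), with a difference of 0.66 (adjusted p = 0.462). A further Cenpa set, above it on 6 of 12 arrays, changed by −1.56 and 0.26. The dimmer set of Spc25 had a brown change of −0.24 (adjusted p = 0.318) and a difference of 0.28 (adjusted p = 0.442). Averaged over all probe sets, the brown changes of Cenpa (−0.21, adjusted p = 0.404) and Cenpf (−0.50, adjusted p = 0.0724) were not called either.

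**Figure D3:**
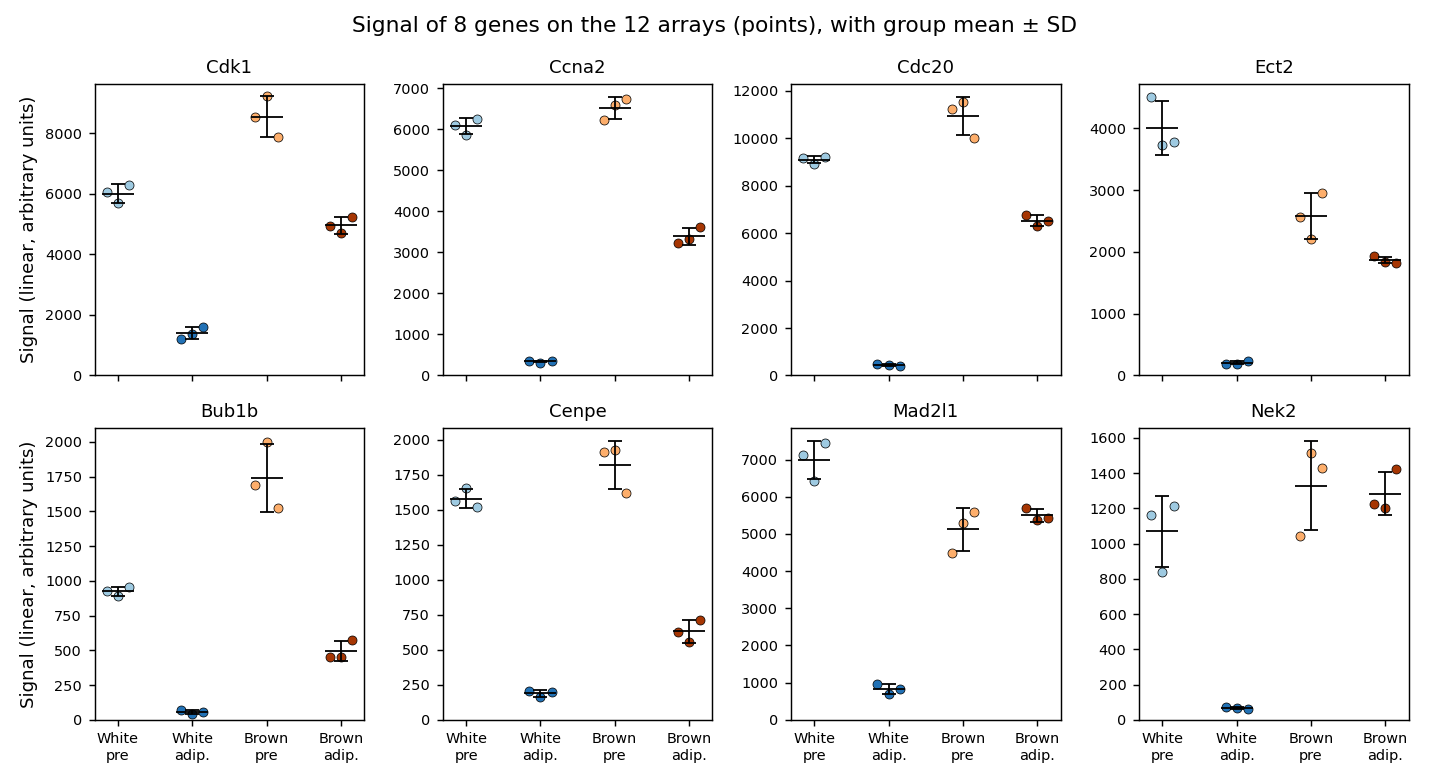
Signal of 8 genes (linear scale from 0, arbitrary units) on the 12 arrays, as points, with the group mean and SD (n = 3 arrays). Cdk1, Ccna2, Cdc20, Ect2, Bub1b and Cenpe were lower in the adipocytes of both lines, and Mad2l1 and Nek2 overlapped between brown preadipocytes and brown adipocytes.

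All 4 genes of the chromosomal passenger complex, the Aurora B kinase and the proteins that place it, fell in both lines. Birc5, survivin (chr11:117849237-117855743), had 5829, 5263 and 5994 in white preadipocytes and 271.1, 243.4 and 196.7 in white adipocytes. Birc5 in the brown line had 5801, 6362 and 5628, then 2332, 2287 and 2570. The lines overlapped at day 0 and not afterwards, and Birc5 had the largest white fall of the 37 genes (−4.51, SE 0.111, adjusted p = 3.13e-10, limma), beside −1.30 (SE 0.111) in the brown line. Incenp, the scaffold of the complex (chr19:9872295-9899489), had 4936, 4774 and 5238 in white preadipocytes and 1014, 985.7 and 1022 in white adipocytes. Brown signals of Incenp were 5377, 5832 and 6206 before and 3389, 3374 and 3555 after. It had one of the 3 smallest differences between the lines, with changes of −2.29 and −0.75 (SE 0.0674 each). The kinase itself, Aurkb, changed by −3.04 and −0.98. Cdca8, borealin, changed by −3.28 and −0.48, and its other probe sets had brown changes of −0.94 and −0.79.

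Kinesins and spindle proteins fell in both lines, 10 of 10 in each. Kif20a, a kinesin of the late spindle, had 3030, 3383 and 3105 in white preadipocytes and 169.8, 180.6 and 170.7 in white adipocytes. Its brown signals were 1839, 2237 and 1888 before and 1067, 1100 and 1286 after. White preadipocytes were the highest group, and Kif20a changed by −4.07 and −0.78 (SE 0.0962 each). Kif4, a chromosome-bound kinesin (chrX:100626065-100727271), had 843.6, 693.4 and 634.3 in white preadipocytes and 81.47, 119 and 112 in white adipocytes. Its brown signals were 934.2, 963.2 and 816, then 468.2, 472.4 and 494.2, and the changes were −2.63 and −0.89 (SE 0.137 each). Kif23, part of the centralspindlin complex (chr9:61917277-61946810), had 2631, 2485 and 2494 in white preadipocytes and 119.5, 131.5 and 58.12 in white adipocytes. Kif23 fell from 1721, 1766 and 1815 to 680.3, 610 and 652.7 in the brown line, so it was among the 3 largest falls in each line (−4.48 and −1.43, SE 0.208). Kif11, the kinesin that pushes the spindle poles apart, changed by −3.73 and −1.13, and Kif2c, which shortens microtubules, by −3.74 and −0.61. The spindle assembly factor Tpx2 had 2019, 1992 and 2069 in white preadipocytes and 244.7, 234.3 and 194.8 in white adipocytes. Its brown signals were 2339, 2447 and 2365 before and 1045, 1097 and 1186 after, and Tpx2 changed by −3.09 and −1.09 (SE 0.0844 each). Nusap1, which stabilises spindle microtubules, had 2217, 2167 and 2272 in white preadipocytes and 196.8, 204.5 and 226.3 in white adipocytes. Nusap1 had 3578, 3623 and 3681, then 2575, 2471 and 2560 in the brown line, with changes of −3.31 and −0.51 (SE 0.0613 each), so brown adipocytes stayed above white preadipocytes on every array. Prc1, which bundles the central spindle, changed by −3.16 and −0.59, and Hmmr by −3.02 and −0.92. Top2a, the topoisomerase that untangles chromosomes, changed by −3.32 and −0.80. The brown calls of 3 of these genes depended on the probe set. Averaged over probe sets the brown change of Nusap1 was −0.15 (adjusted p = 0.392, limma), and with less specific designs left out those of Hmmr and Top2a were −0.20 (adjusted p = 0.434) and −0.38 (adjusted p = 0.0984).

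The cytokinesis genes fell more in the white line than in the brown line, steeply for Ect2 and Racgap1 and less so for Anln. Ect2, which activates RhoA to close the furrow (chr3:27097222-27154253), had 4506, 3723 and 3778 in white preadipocytes and 192.9, 187.3 and 230.6 in white adipocytes. Brown signals of Ect2 were 2572, 2203 and 2951 before and 1929, 1844 and 1828 after. Ect2 had the largest difference between the lines of all 37, with −4.19 in the white line, −0.45 in the brown line (SE 0.121 each) and a difference of 3.74 (SE 0.171, adjusted p = 7.38e-08, limma). Anln, anillin, a scaffold of the furrow (chr9:22331214-22389211), had 10050, 9600 and 10220 in white preadipocytes and 1477, 1522 and 1913 in white adipocytes. Anln went from 4704, 4471 and 4661 to 3129, 2786 and 3056 in the brown line. White preadipocytes held more than any other group, and Anln changed by −2.60 and −0.62 (SE 0.0961 each). Racgap1, the partner of Kif23 in centralspindlin, changed by −4.13 and −0.64.

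Both genes that act with the anaphase-promoting complex fell in both lines. Cdc20, its activator and the target of the checkpoint (chr4:118432901-118437343), had 9153, 8908 and 9192 in white preadipocytes and 464.5, 446.2 and 418.4 in white adipocytes. The brown signals of Cdc20 were 11220, 11540 and 10020 before and 6761, 6298 and 6521 after. Arrays within a group lay close together, and Cdc20 changed by −4.31 and −0.74 (SE 0.07 each), a difference of 3.57 (adjusted p = 3.96e-09, limma). Another probe set of Cdc20, the one used when less specific designs were left out, gave a difference of 2.36. Ube2c, the ubiquitin-conjugating enzyme of the complex (chr2:164769929-164772902), had 5806, 6015 and 6084 in white preadipocytes and 500.1, 510.8 and 425.9 in white adipocytes. Its brown signals were 8363, 8565 and 7474, then 4581, 5003 and 5005, and the changes were −3.60 and −0.74 (SE 0.0844 each).

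**Figure D4:**
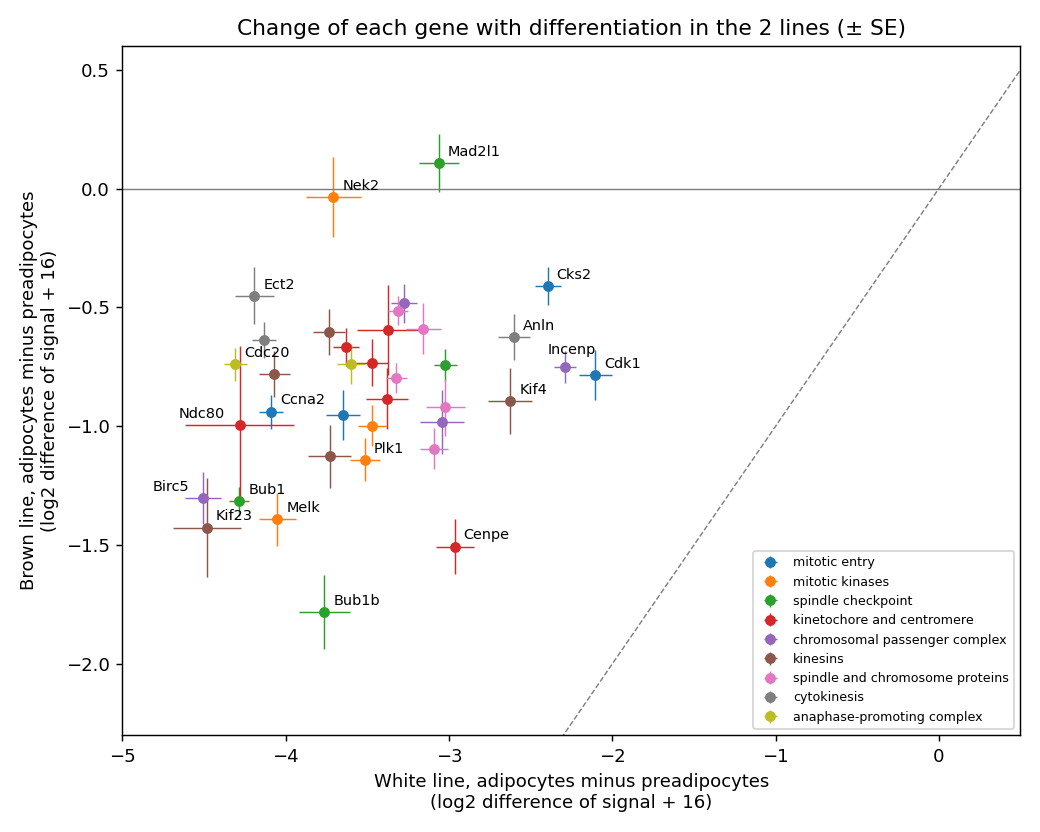
Change of each of the 37 genes with differentiation in the white line (x axis) and the brown line (y axis), both as log2 differences of signal + 16, with the SE of the limma fit as bars and colours for roles. Every gene lies above the dashed line of equal change, with white changes from −4.51 to −2.10 and brown changes from −1.78 to 0.11.

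The size of a gene's fall in the white line said little about its fall in the brown line: across the 37 genes, which share their arrays and are not independent, Pearson's r was 0.287 and Spearman's rho 0.269. Probe set design touched the sizes. The probe set used was of a design counted here as less specific (_s_at, _x_at or _a_at) for 18 of the 37. Such sets can match more than 1 transcript, which for _a_at are transcripts of the same gene. The 37 genes had 46 further probe sets, for 25 genes, and 24 of these were above the 40th percentile on all 12 arrays. All 24 had lower means in white adipocytes than in white preadipocytes, and 23 had lower means in the brown line, with medians of −2.63 and −0.77. Of all 46, dim ones included, 39 were lower in the white line and 40 in the brown line. Their medians were −2.03 and −0.50, and their highest changes 0.65 and 0.35. When all probe sets of a gene were averaged, 12 members had a white fall smaller by over 1.5 times, between −2.80 and −1.26.

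After differentiation all 37 genes were higher in the brown than in the white line, 36 of them by at least 2-fold, against 30% and 11.8% of all genes tested. The median difference was 2.87, against 0.00 over all genes. Nuf2 (4.29, SE 0.19, 19.5-fold), Nek2 (3.98, SE 0.168, 15.8-fold) and Melk (3.87, SE 0.112, 14.6-fold) differed most. Anln (0.87, SE 0.0961, 1.83-fold), Cenpe (1.66, SE 0.116) and Cks2 (1.68, SE 0.0806) differed least. The arrays of the adipocyte groups did not overlap for any of the 37, where 33% of all genes tested were higher in the brown line without overlap. White adipocytes had the lowest mean of the 4 groups for every member. Brown adipocytes even stood above white preadipocytes in the means of Nuf2, Cdca8, Kif2c, Nusap1, Top2a and Nek2, and the arrays of these groups overlapped for Kif2c and Nek2. This order depended on the probe set for Kif2c and Nusap1. A further set of Kif2c had 498.5 in white preadipocytes and 426.2 in brown adipocytes, and that of Nusap1 had 99.72 and 92.36. Dimmer sets of Kif2c (138.6 and 145.4, 37.55 and 67.4) kept the order, as did the further sets of Cdca8 and Nek2.

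Before induction the lines lay much closer. Of the 37 genes, 18 were higher in brown preadipocytes, 5 were lower and 14 were not called, against 31.1% and 23.8% of all genes tested called higher and lower. The median difference was 0.26, against 0.07 over all genes. Nuf2 (1.51, SE 0.19), Melk (1.21, SE 0.112) and Bub1b (0.89, SE 0.155) were highest in brown preadipocytes relative to white. Anln (−1.11, SE 0.0961), Kif20a (−0.67, SE 0.0962) and Ect2 (−0.64, SE 0.121) were the reverse, and Cks2 and Mad2l1 were also lower in the brown line. The calls of Hmmr, Incenp and Tpx2 were lost without white preadipocyte replicate 2 (adjusted p = 0.053, 0.0669 and 0.0945). Hmmr also lost it without brown preadipocyte replicate 2 (0.0606), Incenp without replicate 3 (0.0637), and Tpx2 without any 1 of the 6 preadipocyte arrays or brown adipocyte replicate 2. Other members, not called here, gained a call when 1 array was left out: Ttk and Kif4 with replicate 1 of the white preadipocytes out, Bub1 with replicate 2 out, and Nek2 with brown preadipocyte replicate 1 out. White adipocyte arrays did the same for Kif4 (replicate 1), Kif23 (replicates 2 and 3) and Kif11 (replicate 3). With arrays scaled to equal medians 9 members were higher and 11 lower, against 19.7% and 36% of all genes tested. That scaling moved the median of all genes from 0.07 to −0.18 and the median of the members from 0.26 to −0.02, so the members' median lay above that of all genes in both settings. Of the members called in at least 1 of these settings, Plk1, Incenp, Tpx2 and Cdc20 changed sign with this common shift. Members not called could change sign too. Over the alternatives run, the lowest differences of Ccna2 (−0.18), Birc5 (−0.22), Cenpe (−0.08), Ttk (−0.11) and Kif11 (−0.03) were below 0, while their main values were above it. The order of the group means was brown preadipocytes, white preadipocytes, brown adipocytes, white adipocytes for 21 members. For 9 others white preadipocytes led and the rest of the order was the same. Brown preadipocytes led with brown adipocytes second for 6, and for Mad2l1 white preadipocytes led with brown adipocytes second.

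A wider list of 92 other mitosis genes, 89 of them tested, moved the same way with more exceptions. In the white line 82 fell, 3 rose and 4 were not called, with a median of −2.31. Among the same genes 53 fell, 10 rose and 26 were not called in the brown line, with a median of −0.55. Of all genes tested, 31.2% fell and 30% rose in the white line, and 31.5% fell and 27.2% rose in the brown line. The 3 white rises became 1 when replicate 2 of the white adipocytes or replicate 3 of the white preadipocytes was left out. The change was higher in the brown than in the white line for 76 of the 89, against 23.6% of all genes tested. Mki67, the proliferation antigen Ki-67, went from 6564 ± 341 to 441.8 ± 56.4 (SD, n = 3) in the white line and from 7737 ± 659 to 5246 ± 304 in the brown line, changes of −3.85 and −0.56. Pttg1, securin, which guards the cohesin between sister chromatids until anaphase, went from 9126 ± 215 to 1096 ± 45.9 in the white line but rose from 6279 ± 458 to 9214 ± 321 in the brown line (0.55, SE 0.0675, adjusted p = 4.8e-05, limma). The largest white falls were in the spindle proteins Dlgap5 (−4.34) and Ckap2 (−4.32) and in Shcbp1 (−4.09), which acts in cytokinesis. The largest brown falls in the list were in Psrc1 (−1.74), Shcbp1 (−1.51) and the kinetochore gene Cenpt (−1.38). Depdc1a changed by −4.07 in the white line, its brown change of −0.25 was not called, and its difference of 3.83 exceeded those of the 37 members. Pbk, a mitotic kinase, fell by 3.48 on the log2 scale in the white line, and its brown change was 0.24 (adjusted p = 0.0488, limma), a call lost without any 1 brown adipocyte array, brown preadipocyte replicates 1 or 3, white preadipocyte replicates 1 or 2, or white adipocyte replicate 2 (adjusted p from 0.0572 to 0.155). Cdc16, a subunit of the anaphase-promoting complex, had changes of 0.20 and −1.08, but these turned to −1.05 and −0.56 when probe sets of less specific design were left out. The white call of Cdc16 was also lost without white preadipocyte replicates 1 or 3 or white adipocyte replicates 2 or 3 (adjusted p from 0.0633 to 0.0674, limma). Fzr1, the other activator of that complex, had a white change of −0.22, which was not called, and a brown change of −0.80, which was. Anapc4, another subunit, changed by −0.53 and −0.98. Brown and white preadipocytes differed most in Ska1 (1.66), Cenpm (1.38), Psrc1 (−1.16) and Cep55 (−0.93), and Mad1l1 (−1.10, adjusted p = 0.0914) was not called, except without brown preadipocyte replicate 1 (0.0204).

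The regulators of late cell cycle transcription were called in both directions. Of 19, 12 fell, 3 rose and 4 were not called in the white line, and 4 fell, 8 rose and 7 were not called in the brown line. The shares of all genes tested were 31.2% lower and 30% higher in the white line and 31.5% and 27.2% in the brown line. Without brown preadipocyte replicate 1 or brown adipocyte replicate 2, 2 of the regulators fell there. Foxm1, an activator of mitotic genes, went from 250 ± 21.5 to 82.1 ± 27.7 in the white line (−1.48, SE 0.197), and its brown change was −0.49 (adjusted p = 0.0567, limma), called without white adipocyte replicates 2 or 3 (0.0486 and 0.004). Mybl2, which encodes B-Myb, changed by −1.79 and −0.60, the brown call being lost without brown preadipocyte replicate 1 or brown adipocyte replicates 1 or 2 (adjusted p from 0.0521 to 0.0758). Lin9, a subunit of MuvB, went from 409.1 ± 62.4 to 238 ± 22.7 in the white line and from 696.4 ± 180 to 1573 ± 83.8 in the brown line (−0.74 and 1.18). Lin52, another MuvB subunit, rose by 1.16 in the brown line, and its white change of 0.31 was not called, except without white or brown preadipocyte replicate 2 (adjusted p = 0.0364 and 0.0343, limma). E2f1, an activator of S phase genes, changed by −1.34 in the white line, and its brown change of 0.05 was not called. Without white preadipocyte replicates 2 or 3 another E2f1 probe set was the brightest, with white changes of −0.38 and −0.49, not called, and a brown change of 0.71, called. Without brown preadipocyte replicate 2 the brown change of E2f1 was also called (adjusted p = 0.00727, limma). The repressors E2f7 and E2f8 changed by −3.82 and −3.95 in the white line and had brown changes of −0.19 and −0.23, neither called. Rb1, the retinoblastoma protein, which holds E2F factors back, rose in both lines, from 527.2 ± 45.2 to 3153 ± 159 and from 1016 ± 96.9 to 3365 ± 32.8 (2.55 and 1.72). Its relative Rbl1 (p107) changed by −0.90 in the white line and by 0.89 in the brown line. Rbl2 (p130), the pocket protein of resting cells, rose by 0.50 in the brown line, and its white change of 0.02 was not called. E2f4, a repressor in resting cells, rose by 0.95 and its brown change of 0.51 was not called, except without white preadipocyte replicate 2 (adjusted p = 0.0233, limma), and Tfdp2, a partner of E2F factors, rose by 0.84 and 1.005.

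All 25 replication genes tested fell in the white line, against 31.2% of all genes tested, with a median of −2.82. In the brown line 7 fell, 5 rose and 13 were not called, with a median of 0.02. The shares of all genes tested there were 31.5% lower and 27.2% higher, so these brown counts do not set the replication genes apart. The 7 became 4 without brown adipocyte replicates 1 or 3 and 3 without brown preadipocyte replicate 2. The difference between the lines was called higher for all 25, against 23.6% of all genes tested. Mcm5, a subunit of the replicative helicase, had a brown change of −0.07 beside −4.94 in the white line, and the sliding clamp Pcna changed by 0.11 and −1.95. Neither brown change was called. Uhrf1, which keeps DNA methylation through replication, changed by −4.81 in the white line and −0.28 in the brown line. The brown call of Uhrf1 was lost without any 1 brown adipocyte array or without brown preadipocyte replicates 1 or 2 (adjusted p from 0.0567 to 0.109). The per-array medians of the replication genes were 11.75 to 11.83 in brown preadipocytes and 12.12 to 12.14 in brown adipocytes, whereas those of the 37 mitosis and spindle genes were 11.39 to 11.46 and 10.61 to 10.71. The difference between these lists was not tested.

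**Figure D5:**
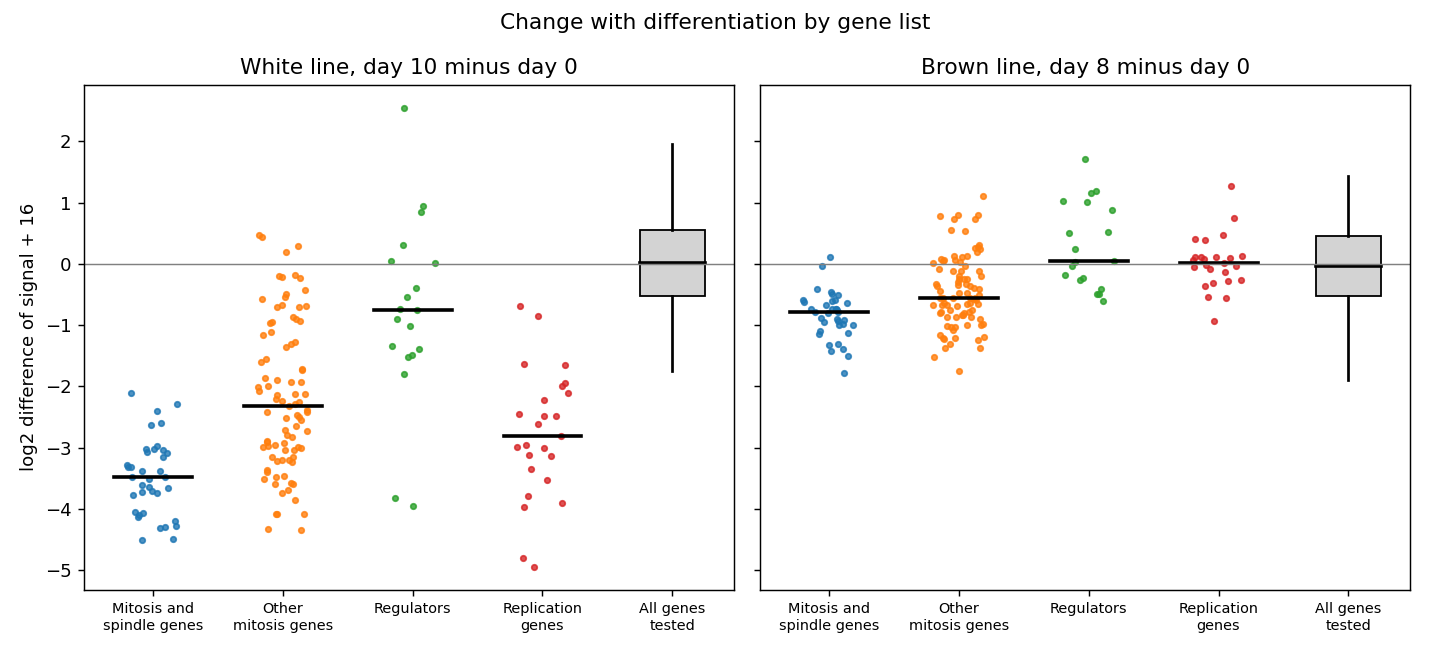
Change with differentiation (log2 difference of signal + 16) of each gene (points) in the 37 mitosis and spindle genes, 89 other mitosis genes, 19 regulators and 25 replication genes, with the list's median as a bar, in the white line (left) and the brown line (right). The box shows the 25th to 75th percentile of all 13746 genes and its whiskers the 5th to 95th. In the brown line the median of the mitosis and spindle genes was −0.78 and that of the replication genes 0.02.

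Outside all lists, the genes whose log2 profile over the 12 arrays lay nearest to the members' mean profile were Ranbp1 (Pearson's r 0.9986), Atp10a (0.9982), Prim2 (0.9981), Hirip3 (0.9971), Fam111a (0.997), Khdrbs1 (0.9962), Ewsr1 (0.9962) and Exo1 (0.996). With 4 groups far apart, such correlations mostly follow the group means. Ranbp1, a regulator of the Ran GTPase, changed by −1.90 and −0.43. Prim2, a primase subunit, changed by −2.10 and −0.47. Exo1, a repair exonuclease, changed by −3.77 and −0.79.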

How the data were processed

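The authors deposited a linear intensity for each probe set on each array. Per the submitters' processing notes it came from Affymetrix Expression Console, with version and algorithm not stated in the labels or notes. The mean after trimming 2% at each end was 500.003 to 500.004 on every array, so arrays had been scaled to a common level, which hides a change in total RNA per cell. Probe set signals carry no read depth, and 3 arrays per group limit the precision. Of 45101 probe sets, 34958 carried 1 symbol (18194 genes), 932 several, and 9211 were not listed. All 37 symbols matched RefSeq by gene ID. For each gene the probe set with the highest mean log2(signal + 16) was used. Genes above the 40th percentile of the array on at least 3 of 12 arrays were tested: 13746, including all 37 members, of which 36 passed on every array. limma 3.58.1 (R 4.3.3; lmFit on 4 group means, eBayes, 8 residual and 1.81 prior degrees of freedom) gave two-sided p-values for 5 comparisons, adjusted by Benjamini-Hochberg over all genes tested and called under 0.05. Folds and SE are on the log2(signal + 16) scale, which understates changes of dim genes.

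The members, lists and tests were chosen with earlier results of these data known. Values on every array are given for the members with the largest and smallest difference between lines in each role, and Melk, Kif23 and Nuf2 were added among the 3 highest and 3 lowest of a comparison. Other genes were named by the same 3 and 3 rule or as known cell cycle genes. Same-numbered arrays did not deviate together (18 correlations, −0.03 to 0.067), so the numbers were not used to pair samples in the main fit. Whether same-numbered samples were handled together cannot be told from these correlations. On simulated data for the brown comparison (13746 genes), 18 of 50 genes lowered by 0.5 (log2) and 44 of 50 raised by 2 were called, and 6 of 13546 unchanged genes. Far fewer genes changed there than were called in the data (31.5% lower and 27.2% higher). The adjustment was therefore stricter, and the simulated shares do not carry over to the data. The settings varied were the pseudocount (1 or 64), the scaling (quantile normalization, equal medians, hybridization controls), the filter (none, or at the 60th percentile), the mean over a gene's probe sets, less specific designs left out, trended or robust eBayes, only the arrays compared, a replicate block, adjusted p under 0.01, and each array left out. Promoter words were counted and plots drawn with Python 3.11.15, numpy 2.4.6, pandas 2.3.3 and matplotlib 3.10.9.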

Additional observations from a re-analysis of the deposited data

Results flagged for a closer look

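All 37 members were picked out because the brown change minus the white change differed from 0 by its own test (limma, adjusted p under 0.05, log2 scale). In mitotic entry the differences were Cdk1 (1.32), Ccna2 (3.15), Ccnb2 (2.70) and Cks2 (1.99). Among the mitotic kinases they were Aurka (2.48), Plk1 (2.37), Nek2 (3.67) and Melk (2.66). The spindle checkpoint genes differed by Bub1 (2.97), Bub1b (1.98), Mad2l1 (3.17) and Ttk (2.28). At the kinetochore and centromere the values were Cenpa (2.97), Cenpe (1.46), Cenpf (2.74), Ndc80 (3.29), Nuf2 (2.78) and Spc25 (2.50). The chromosomal passenger complex gave Aurkb (2.06), Birc5 (3.20), Cdca8 (2.79) and Incenp (1.54). For the kinesins the differences stood at Kif11 (2.60), Kif20a (3.29), Kif23 (3.06), Kif2c (3.13) and Kif4 (1.73). Spindle and chromosome proteins showed Tpx2 (2.00), Nusap1 (2.80), Prc1 (2.57), Hmmr (2.10) and Top2a (2.53). Cytokinesis genes had Anln (1.98), Ect2 (3.74) and Racgap1 (3.496). The anaphase-promoting complex had Cdc20 (3.57) and Ube2c (2.86).

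Of the 31 other genes named, 27 were picked out by the same test. Of all genes tested, 23.6% had a higher and 27.4% a lower change in the brown line. Some of the 31 were named for their high or low values, so their share cannot be set against that of all genes. Other mitosis genes with a higher change in the brown line were Mki67 (3.29), Pttg1 (3.59), Cenpm (2.43), Ckap2 (3.30), Dlgap5 (3.04), Cep55 (2.92), Ska1 (1.62), Psrc1 (0.54), Pbk (3.72), Shcbp1 (2.58) and Depdc1a (3.83). Regulators with a higher change there were Foxm1 (0.99), Mybl2 (1.19), Lin9 (1.92), Lin52 (0.85), E2f1 (1.40), E2f7 (3.63), E2f8 (3.73), Rbl1 (1.79) and Rbl2 (0.48). Replication genes gave Mcm5 (4.87), Pcna (2.06) and Uhrf1 (4.53). A lower change in the brown line was found for Fzr1 (−0.58), Anapc4 (−0.45), Cdc16 (−1.28) and Rb1 (−0.83). That of Fzr1 was lost without any 1 of the 3 white preadipocyte arrays, white adipocyte replicates 2 or 3, brown preadipocyte replicates 1 or 3, or brown adipocyte replicates 1 or 2 (adjusted p from 0.0651 to 0.0944, limma). With 3 arrays per group, single arrays were not screened for distance from the rest.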

How the results depend on the processing

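The counts of members called in white differentiation (37 lower), in the difference between lines (37 higher) and in adipocytes (37 higher) kept their direction under each alternative run, and with any 1 array left out they stayed at 37. Leaving out probe sets of less specific design left 30 members to test, of which 29, 28 and 29 were called in these comparisons and 24 in brown differentiation. The shares of all genes tested called the same way in that setting were 30.3%, 23.1% and 29.9%, and 29.9% in brown differentiation. In brown differentiation 35 members were lower, 33 to 35 with 1 array left out, and none was higher under any alternative. In preadipocytes the members called higher numbered 18, 15 to 19 with 1 array left out, 9 with equal medians, and those called lower numbered 5, 5 to 6 with 1 array left out, 11 with equal medians and 3 with less specific designs left out. The replicate number as a block gave 37, 35, 37 and 37 calls and, in preadipocytes, 17 higher and 5 lower, where only Tpx2 lost its call (adjusted p = 0.0676). A direction was counted as reversed only where the main setting or the alternative gave a call. Directions reversed in preadipocytes with equal medians for Plk1 (−0.23), Incenp (−0.0607), Tpx2 (−0.0451) and Cdc20 (−0.0158), for Bub1 with the mean of all probe sets (0.56), and for E2f1 without brown preadipocyte replicate 2 (0.31, in a range from −0.159). Cdc16 reversed in white differentiation with hybridization control scaling (−0.0709), the mean of probe sets (−0.42) and less specific designs left out (−1.05), and under the last also in the difference between lines (0.49) and in adipocytes (0.53). Rbl2 in white differentiation reversed with hybridization control scaling (−0.25), and Tfdp2 in the difference between lines with the mean of probe sets (−0.57). Equal medians moved all genes alike. Under hybridization control scaling Cdc16 and Rbl2 moved down in the white line, as did the median of all genes given below. The cause of the reversals outside equal medians was not tested. Hybridization control scaling moved the median of all genes to −0.22 in the white line and −0.24 in the brown line, and the members' medians to −3.73 and −1.02. Ndc80, near the floor in white adipocytes, was the member most limited by signal over background.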
